A study of Mus musculus with 8 samples.

Results

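Odf1 and Akap4 encode structural proteins of the sperm tail. They were taken by symbol from the m6A peak lists and joined by Ensembl identifier to the gene counts, and both of these 2 members were found among 53465 genes, of which 8733 have a symbol in the lists. Odf1 is ENSMUSG00000061923 and Akap4 is ENSMUSG00000050089. The libraries came from spermatogenic cells of testes of C57BL/6 mice aged 12 weeks, either wild type (WT) or Alkbh5-/- (KO). Alkbh5 encodes an RNA demethylase that takes off N6-methyladenosine (m6A), a methyl group that marks adenosines in RNA. The titles call the cell fractions PA and RO. The study is on pachytene spermatocytes, the cells of meiotic prophase, and on round spermatids, the haploid cells that meiosis yields. The 8 samples are 1 input and 1 immunoprecipitated library for each genotype and cell fraction, the latter made with an antibody against m6A. The labels used here give neither the number of animals per library nor the way the cells were separated. With 1 library per group no difference has a replicate check and no test was made, and each value describes these libraries.

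The sperm tail is built around a microtubule axoneme. Outer dense fibres run along the axoneme, and in the principal piece a fibrous sheath of longitudinal columns and ribs surrounds them. ODF1 is a cysteine-rich protein of the outer dense fibres. AKAP4 is the major protein of the fibrous sheath and an anchor for the regulatory subunit of protein kinase A. Both genes are known to be transcribed in haploid spermatids, and their proteins are assembled into the tail during spermatid elongation. Akap4 lies on the X chromosome, which is transcriptionally silenced during the pachytene stage, and Odf1 on an autosome.

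Odf1 lies on chromosome 15 from 38219203 to 38226735, + strand, and Akap4 on chromosome X from 7067515 to 7078609, + strand, in RefSeq GRCm38.p6. The genome build named in the submitters' processing notes is mm10, which is the same assembly. The RefSeq promoter table holds 2 start-site windows for Akap4, each from 250 bases before to 50 after a start. A stretch of the upstream window is given for its capitals, an 8-base match to the pattern TGANGTCA, which differs from the cAMP response element TGACGTCA at the position N only. That element is the known target of CREM, an activator of haploid-phase genes. The match begins 35 bases before the start site, and the stretch covers chrX:7067469-7067498, + strand, 5′ to 3′.
Akap4 upstream window: tatagaaacagTGATGTCAtgaattttaag
Searched on both strands, TGANGTCA was present in 8.83% of 32851 promoter windows, and TGACGTCA, whose matches are a subset of it, in 1.79%. Neither Akap4 window held TGACGTCA, and the second window held neither pattern. The pattern was chosen after the sequence was seen.

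Both genes were highest in the KO RO library and lowest in the WT PA library. Odf1 had 321 counts in WT PA, 582 in WT RO, 949 in KO PA and 1705 in KO RO. Levels are given as CPM, the count divided by the effective library size and put on a common scale. The Odf1 level was 27.4 CPM in WT PA (95% Poisson interval 24.5 to 30.5), 50.5 in WT RO (46.5 to 54.8), 87.7 in KO PA (82.2 to 93.5) and 156 in KO RO (148 to 163). Both KO libraries thus lay above both WT libraries, and within each genotype RO lay above PA. Akap4 had 293 counts in WT PA, 903 in WT RO, 1270 in KO PA and 2546 in KO RO. Its level was 25 CPM in WT PA (22.2 to 28), 78.4 in WT RO (73.4 to 83.7), 117 in KO PA (111 to 124) and 232 in KO RO (224 to 242). The order of the libraries was the same as for Odf1. These and all further intervals cover counting error only, and reads without molecular identifiers are not independent molecules.

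**Figure D1:**
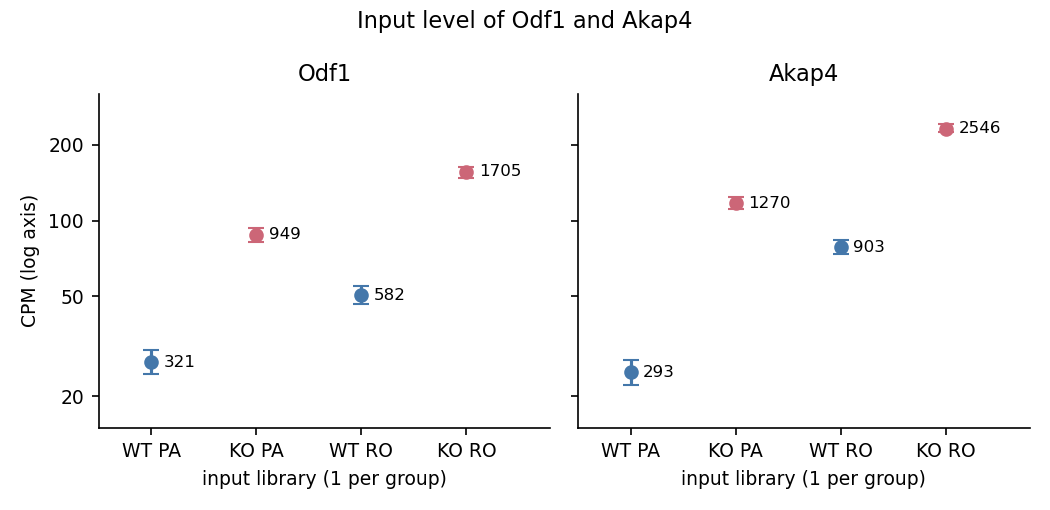
Input level of Odf1 (left) and Akap4 (right) in CPM on a log axis, 1 point per library with its 95% Poisson interval (WT blue, KO red) and the raw count beside it. Both genes run from about 27.4 and 25 CPM in WT PA to 156 and 232 CPM in KO RO, with the KO library above the WT library in each cell fraction.

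In ascending order the libraries were WT PA, WT RO, KO PA and KO RO for both genes, and the intervals of neighbouring libraries did not overlap. For Odf1 the neighbouring steps were 1.84-fold, 1.73-fold (KO PA over WT RO, 1.56 to 1.93) and 1.77-fold. For Akap4 they were 3.13-fold, 1.5-fold (KO PA over WT RO, 1.37 to 1.63) and 1.98-fold. The same order was found for 905 of the 13677 genes that reached 10 CPM in any library (6.62%). In rank, Odf1 moved from 6699 among the 53465 genes in WT PA to 1080 in KO RO, and Akap4 from 7074 to 582. The counts of these genes come from bulk cell fractions, so that fewer cells of a type and less RNA per cell cannot be told apart.

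Loss of the demethylase was addressed by comparing KO with WT in each fraction. Odf1 was 3.19-fold higher in KO than in WT in PA (2.82 to 3.65) and 3.07-fold higher in RO (2.8 to 3.39). Akap4 was 4.67-fold higher in PA (4.14 to 5.36) and 2.96-fold higher in RO (2.75 to 3.2). Both members were thus at least 2-fold higher in KO in both fractions. Of all genes that reached 1 CPM in either library, 23.8% were at least 2-fold higher in KO in PA and 23.0% in RO, and 8.70% in both. Among genes that reached 10 CPM, as both members do, these shares were 13.3%, 11.8% and 4.37%.

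Much of that background came from genes with few counts, so the members were also placed beside genes whose summed count in the same 2 libraries lay within 2-fold of their own. On the log2 scale the Odf1 ratio KO over WT was 1.67 in PA, where 4759 such genes had a median of −0.06 and a robust SD (scaled median absolute deviation) of 0.69. A ratio at least as high was found for 53 of them (1.11%). In RO the Odf1 log2 ratio was 1.62, against a median of −0.12 and a robust SD of 0.62 over 3370 genes, of which 17 were as high (0.504%). The Akap4 log2 ratio in PA was 2.22, and 8 of 4327 genes of like count were as high (0.185%, robust SD 0.67). In RO it was 1.57, and 11 of 2412 genes were as high (0.456%, robust SD 0.57). The genotype ratios of both members therefore lay in the upper tail of genes counted with like precision, in each case more than 2 of their robust SDs above their median.

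**Figure D2:**
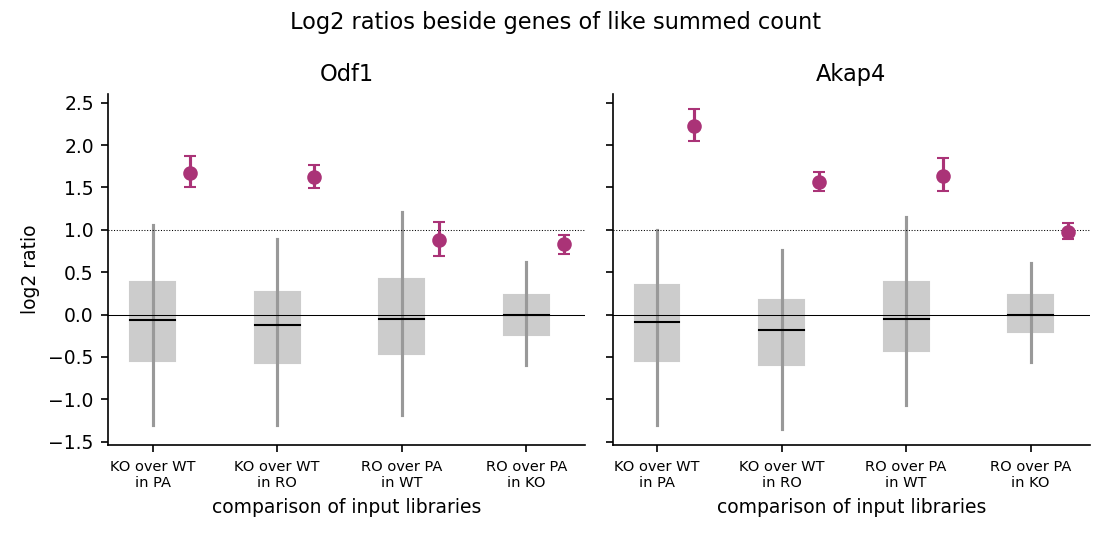
Log2 ratios of Odf1 (left) and Akap4 (right) in 4 comparisons of input libraries. Points are the gene with its exact binomial 95% interval. Grey boxes, lines and black bars give the quartiles, the 5th to 95th percentiles and the median of genes whose summed count was within 2-fold of that of the gene. The dotted line marks 2-fold. In the KO over WT comparisons both genes lie above the 95th percentiles, which run from 0.76 to 1.06, and Odf1 in RO over PA in WT lies below that percentile (1.21).

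The genotype ratio of Odf1 was nearly equal in the fractions, and the log2 ratio in RO minus that in PA was −0.06 (−0.28 to 0.17). For Akap4 this difference was −0.66 (−0.87 to −0.45), a smaller ratio in RO than in PA by more than counting error. Among 3158 genes of like total count the same difference had a robust SD of 0.47, and 537 of them (17%) lay as far from their median as Akap4. The Akap4 difference between fractions was therefore within the range common among such genes.

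Stage was addressed by comparing RO with PA within each genotype. Odf1 was 1.84-fold higher in RO than in PA in WT (1.61 to 2.12) and 1.77-fold higher in KO (1.64 to 1.92), both below 2-fold. Akap4 was 3.13-fold higher in WT (2.75 to 3.59) and 1.98-fold higher in KO (1.85 to 2.12), so it passed 2-fold in WT, and its KO value was just below that limit. At least 2-fold higher levels in RO were found for 21.6% of all genes tested in WT and 17.5% in KO. Among genes of like summed count, 571 of 5296 had a stage ratio in WT at least as high as that of Odf1 (10.8%), and 43 of 4784 one as high as that of Akap4 (0.899%). In KO the stage ratios of genes of like count were closer together, with robust SDs of 0.36 and 0.32. There, 62 of 2954 genes were as high as Odf1 (2.1%) and 14 of 2008 as high as Akap4 (0.697%). The stage comparisons share libraries with the genotype comparisons, so the ratios of a gene are not independent.

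The number of Akap4 counts per Odf1 count within a library does not depend on the scaling between libraries. It was 0.913 in WT PA (0.776 to 1.07), 1.55 in WT RO (1.4 to 1.72), 1.34 in KO PA (1.23 to 1.46) and 1.49 in KO RO (1.4 to 1.59). WT PA was low against the other 3 libraries, whose values lay close together, and those of WT RO and KO RO had overlapping intervals. This number is a ratio of counts not divided by gene length, so only its change between libraries is informative.

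Other X-linked genes were compared because of the position of Akap4. The median log2 ratio KO over WT was 0.49 for 230 X-linked genes with a symbol in PA and 0.71 for 234 in RO, against −0.06 and −0.07 for 8135 and 8157 autosomal genes with a symbol. At least 2-fold higher levels in KO were found for 75 (32.6%) and 95 (40.6%) of the X-linked genes, and for 12.4% of the autosomal genes in both fractions. The Akap4 ratios of 2.22 and 1.57 were above both medians. For RO over PA the X-linked medians were −0.12 in WT and 0.15 in KO, and Akap4, at 1.64 and 0.98, was above them too. The part of X linkage in the Akap4 ratios was not tested.

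The peak lists give where m6A was enriched in the immunoprecipitated over the input library. Across the 4 lists the members had 4 peaks, 3 in Odf1 and 1 in Akap4, all of 1 exon block on the + strand. The WT PA list with 7502 peaks and the KO RO list with 8846 held none, the KO PA list with 9931 held 1 and the WT RO list with 9418 held 3. Coordinates count from 1, and the fold, the false discovery rate and the feature class are the authors'.

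For WT RO, the authors' deposited table had a peak of Odf1 in the 5′ untranslated region that covered 38219293 to 38219531 on chromosome 15, 239 bp, with a fold of 12.2 and a false discovery rate of 1.26e-29. It began 90 bp and ended 328 bp after the RefSeq gene start. For KO PA, the authors' deposited table placed the Odf1 peak at 38219322 to 38219531, 210 bp of the same class, with a fold of 7.14 and a false discovery rate of 3.55e-04. Both peaks ended at the same base, and the KO PA peak lay wholly inside the WT RO peak, with 210 bp in common. The 5′ untranslated region held 367 of the KO PA peaks (3.70%) and 360 of the WT RO peaks (3.82%), so this class was rare in both lists. The second WT RO peak of Odf1 lay in coding sequence from 38226228 to 38226437 in the authors' deposited table, 210 bp, with a fold of 5.14 and a false discovery rate of 6.46e-08. It ended 298 bp before the RefSeq gene end and had no counterpart in another list.

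The peak of Akap4 lay in coding sequence on chromosome X from 7076824 to 7077004, 181 bp, with a fold of 4.71 and a false discovery rate of 3.16e-05, in the WT RO list of the authors' deposited tables. It ended 1605 bp before the RefSeq gene end. No peak assigned to another gene lay within the RefSeq span of Odf1 or Akap4 in any list. All 4 peaks had a false discovery rate under 0.05, and their folds were below the median of their lists. In WT RO, whose median fold was 15.1, a higher fold was listed for 58.9% of peaks beside the Odf1 5′ peak, 91% beside the Odf1 coding peak and 92.1% beside the Akap4 peak. In KO PA, with a median of 13, it was listed for 77.2% of peaks.

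**Figure D3:**
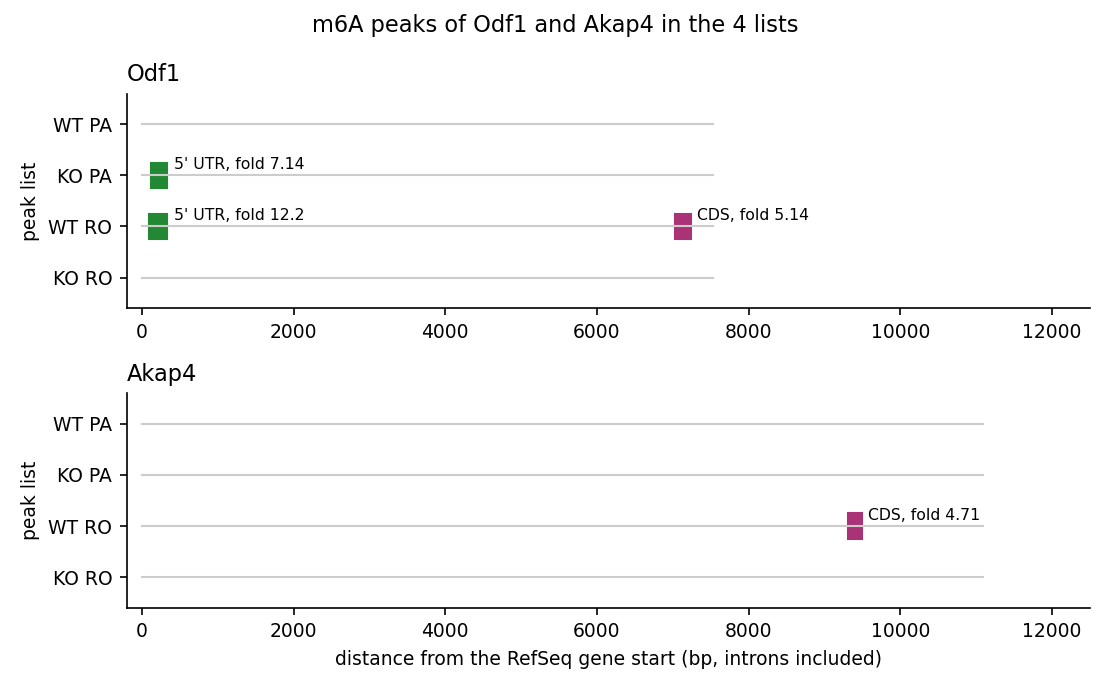
Peaks of Odf1 (top) and Akap4 (bottom) in the 4 lists, by distance in bp from the RefSeq gene start with introns included; grey lines span the gene, and green boxes mark the 5′ untranslated region (5' UTR), purple boxes coding sequence (CDS), with the authors' fold. Odf1 has the 5′ peak in WT RO (fold 12.2) and KO PA (7.14), the coding peaks are in WT RO, and WT PA and KO RO have none.

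Absence of a peak was set against the input level, since within each list the share of genes with a peak was larger at the higher of the levels of the members. In KO RO, where both genes were highest, 1245 of 2266 genes with a CPM within 2-fold of that of Odf1 had a peak (54.9%, Wilson interval 52.9% to 57%), and 872 of 1444 around the level of Akap4 (60.4%, 57.8% to 62.9%). Neither Odf1 nor Akap4 did. In KO PA, 54.2% of genes at the level of Odf1 had a peak, as Odf1 had, and 58.4% at the level of Akap4, which had none. In WT RO, where both had peaks, the shares were 43.1% and 47.6%. In WT PA, where both were lowest and had none, they were 29.3% and 28.2%. The members had no peak in KO RO at 156 and 232 CPM, and had peaks in WT RO at 50.5 and 78.4 CPM. The part of the input level in their peaks was not tested. Immunoprecipitated libraries enter through the peaks only, and whether the enrichment itself differed between lists was not tested.

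**Figure D4:**
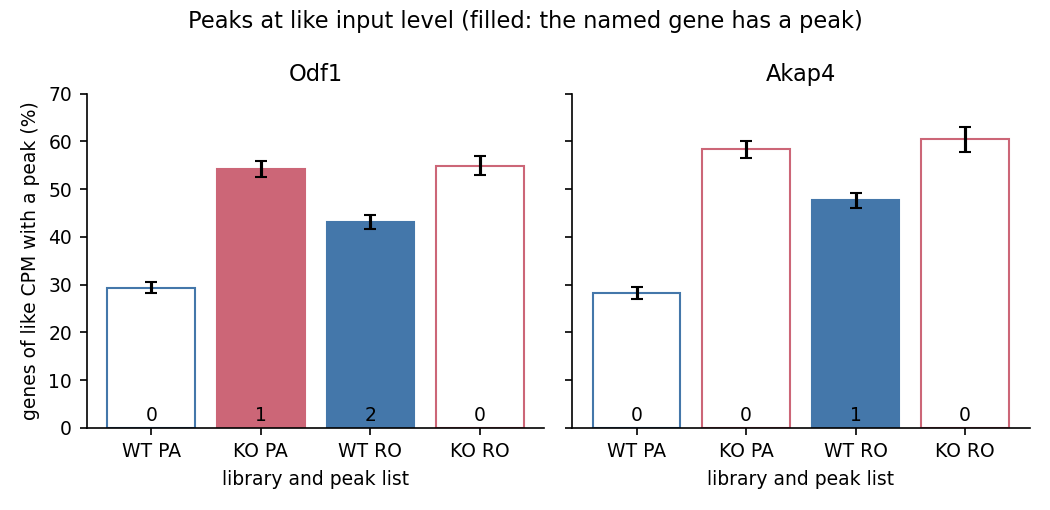
Share of genes with a peak, in percent with Wilson 95% intervals, among genes whose CPM in that library was within 2-fold of that of Odf1 (left) or Akap4 (right). Filled bars mark lists in which the named gene has a peak, and the number at the foot of a bar is its number of peaks; in KO RO the shares are 54.9% and 60.4%, and both genes have 0.

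Of the 8733 genes with a peak in any list, 298 (3.41%) had peaks in exactly the lists KO PA and WT RO, as Odf1 did. Peaks in WT RO only, as for Akap4, were found for 1252 genes (14.3%), more than for any other single list. The most common pattern was a peak in all 4 lists, for 3007 genes (34.4%).

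Other proteins of the fibrous sheath came from a list of 13 genes, of which 11 have a symbol in the peak lists, and all 11 passed the limit on low counts. In PA 4 of the 11 were at least 2-fold higher in KO and none lower. Of all genes tested, 23.8% were higher and 19.9% lower by that limit. The log2 ratios of the 11 ranged from −0.88 to 2.23 with a median of 0.76, against 0.04 for all genes tested. In RO 4 were at least 2-fold higher and none lower, with a median of 0.54, against 0.04 for all genes, of which 23.0% were higher and 19.0% lower. For RO over PA, 2 of 11 were at least 2-fold higher in each genotype and none lower, with medians of 0.56 in WT and 0.47 in KO. Of all genes, 21.6% in WT and 17.5% in KO were at least 2-fold higher in RO, and 18.7% and 15.2% were lower. Autosomal genes with a symbol, a closer reference for listed genes, were 2-fold higher in RO less often, 12.1% in WT and 7.11% in KO. For KO over WT that share was 12.4% in each fraction. With 11 genes, these counts cannot be told apart from either share with any precision. The genes are known only where a peak was called, so that these counts describe a selected set.

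Akap3, whose protein binds AKAP4 in the sheath, had 573 counts in WT PA, 1226 in WT RO, 1592 in KO PA and 1884 in KO RO. It was 3.01-fold higher in KO in PA (2.74 to 3.32) and 1.61-fold higher in RO (1.5 to 1.74), so the genotype difference past 2-fold was in PA. Its peaks lay in coding sequence, 2 in WT RO and 2 in KO PA, and WT PA and KO RO had none, the same lists as for Odf1. Fsip2, a very large fibrous sheath-interacting protein, was the most highly counted of these genes, with 25403 in WT PA, 36709 in WT RO, 23230 in KO PA and 30468 in KO RO. Its log2 ratio KO over WT was −0.01 in PA, which became 0.28 with scaling by total counts only, and −0.20 in RO. Ropn1l, a protein with a domain that binds A-kinase anchors, was at 112, 105, 114 and 105 CPM in this order of libraries, all within 2-fold. Cabyr, a calcium-binding protein of the sheath, was 1.43-fold higher in KO in PA (1.28 to 1.6) and 1.17-fold in RO (1.08 to 1.27).

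The genes past 2-fold in both fractions were Akap14, Ropn1 and Aldoart2, an anchoring protein, a binding partner of the anchors and a testis aldolase. Akap14 had 34 counts in WT PA, 16 in WT RO, 154 in KO PA and 109 in KO RO. Ropn1 had 104, 147, 264 and 441, and Aldoart2 had 79, 56, 188 and 265 in the same order. Fscb was 1.69-fold higher in PA and 2.93-fold higher in RO. Eno4, a sperm enolase, was at 0.543 of the WT level in PA and 0.612 in RO, within 2-fold. These 5 were named after their values were seen. Reads of Aldoart2 and Aldoart1 may be shared with other aldolase genes, and their counts are uncertain.

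Of 10 genes listed for the outer dense fibres only Odf4 and Tssk4 have a symbol here, and neither was at least 2-fold higher in KO. Odf4, a sperm tail protein gene, had 2060 counts in WT PA, 2118 in WT RO, 362 in KO PA and 483 in KO RO. The KO level was 0.191 of the WT level in PA (0.17 to 0.213) and 0.24 in RO (0.217 to 0.265), opposite in direction to Odf1, with no stage difference in WT past 2-fold (1.05-fold). At least 2-fold lower levels in KO were found for 19.9% of all genes in PA and 19.0% in RO. In the authors' deposited tables Odf4 had 1 peak in the 3′ untranslated region at the same position in WT PA (fold 17.9) and WT RO (fold 49.8). The KO lists held none, but the Odf4 input level was also lower there. It was 176 CPM in WT PA and 184 in WT RO, against 33.5 in KO PA and 44.1 in KO RO. Whether m6A on Odf4 differed between genotypes was not tested. Tssk4, a testis kinase that acts on the fibre protein ODF2, had 154 counts in WT PA, 322 in WT RO, 120 in KO PA and 217 in KO RO, and was 2.12-fold higher in RO in WT (1.75 to 2.6). Its log2 ratio KO over WT in PA was −0.24 and became 0.05 with scaling by total counts only.

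**Figure D5:**
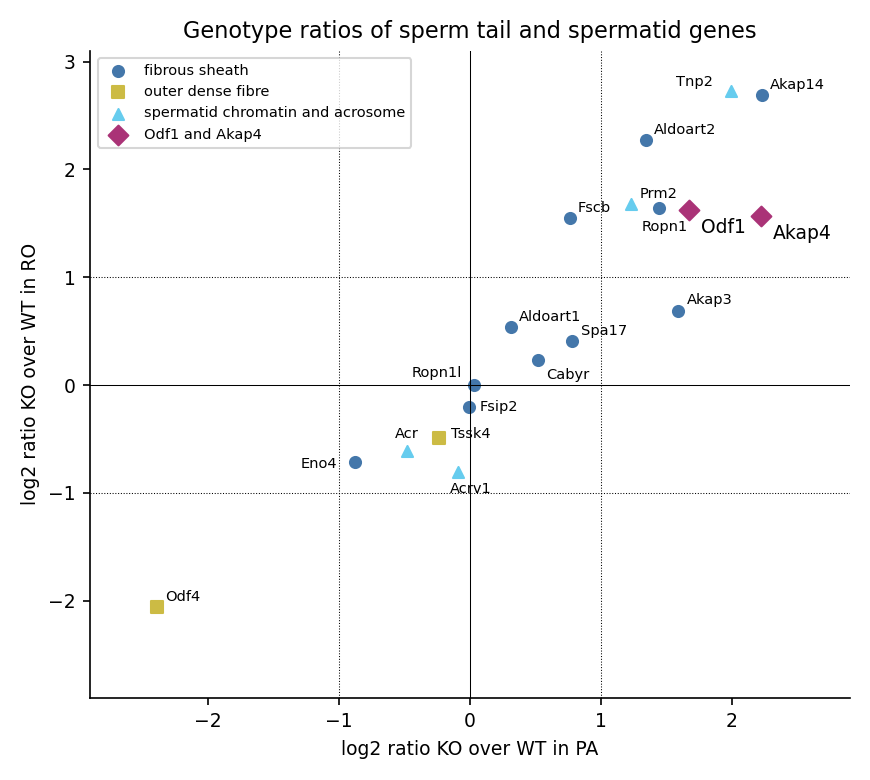
Log2 ratio KO over WT in PA (x) and in RO (y) for Odf1 and Akap4 (diamonds) and the listed genes of the fibrous sheath, the outer dense fibres and spermatid chromatin and acrosome that have a symbol; dotted lines mark 2-fold. Odf1 and Akap4 lie in the upper right with Tnp2, Prm2, Akap14, Ropn1 and Aldoart2, and Odf4 lies alone in the lower left.

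Genes of spermatid chromatin and of the acrosome split. Prm2, a protamine that packs sperm DNA, was 2.35-fold higher in KO in PA (2.18 to 2.54) and 3.19-fold in RO (3 to 3.41), and Tnp2, a transition protein that precedes protamines, 3.97-fold (3.37 to 4.8) and 6.65-fold (5.81 to 7.77). Of all genes, 23.8% in PA and 23.0% in RO were at least 2-fold higher in KO. Acr, the acrosomal protease acrosin, was at 0.715 of its WT level in KO in PA and 0.654 in RO. Acrv1, an acrosomal matrix protein, was at 0.938 of its WT level in PA and 0.572 in RO. The PA log2 ratio of Acrv1 was −0.09 and became 0.20 with scaling by total counts only. All 4 were above 0 in log2 ratio for RO over PA in both genotypes, with medians of 0.59 in WT and 0.73 in KO. In each genotype 1 of the 4 passed 2-fold, Acrv1 in WT (2.48-fold) and Tnp2 in KO (2.29-fold). Of all genes, 21.6% in WT and 17.5% in KO were at least 2-fold higher in RO, and of autosomal genes with a symbol 12.1% and 7.11%. A count of 1 among 4 genes says little against either share.

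Markers of other cells were present in every library. Summed over the genes with a symbol, 4 of 12 spermatocyte genes made 2314 CPM in WT PA, 2023 in WT RO, 1254 in KO PA and 1502 in KO RO. Most of this sum was Sycp2 alone, at 1777, 1518, 826 and 930 CPM in that order. For KO over WT, 1 of the 4 genes was above 0 in log2 ratio in PA and 2 in RO, where their median was 0.04. None of these 4 genes was at least 2-fold lower in RO than in PA in either genotype. Of all genes, 18.7% in WT and 15.2% in KO were. The RO over PA ratios in WT were 1.01 for Sycp1, 0.855 for Sycp2, 0.728 for Syce1 and 1.19 for Syce2. In KO they were 1.28, 1.13, 1.86 and 0.968 for the same genes. These meiotic genes thus differed little between the PA and RO libraries, and how well the fractions were separated was not tested. In the same order of libraries, 4 of 8 spermatogonial genes made 33.4, 24, 63.9 and 47.2 CPM, 4 of 8 Sertoli genes 239, 172, 318 and 198 CPM, 2 of 7 Leydig genes 136, 41.5, 40 and 16.7 CPM, and 4 of 7 peritubular, endothelial and macrophage genes 336, 181, 338 and 325 CPM. No marker with a symbol was at 0 in a library. The 2 Leydig genes and the spermatocyte sum were lower in KO in both fractions, where Odf1 and Akap4 were higher. The spermatogonial and Sertoli sums were higher in KO in both fractions. All 4 spermatogonial genes were above 0 in log2 ratio KO over WT in both fractions, but Gfra1 had only 2 counts and Sall4 only 6 in WT RO. Of the 4 Sertoli genes, 2 were above 0 in PA and 3 in RO. Gata4 was lower in KO in both fractions, at 0.717 of its WT level in PA and 0.687 in RO. The peritubular, endothelial and macrophage sum was higher in KO in RO and nearly equal in PA. Most of this sum was Myh11 alone, at 285 CPM in WT PA, 143 in WT RO, 272 in KO PA and 226 in KO RO. The macrophage marker Csf1r was 5.4-fold higher in KO in PA, with 133 against 25 counts, and 3.09-fold higher in RO. In PA the KO over WT ratio was 0.954 for Myh11, 1.14 for Pecam1 and 1.1 for Cdh5. From PA to RO, where Odf1 and Akap4 were higher, the spermatogonial, Sertoli, Leydig and peritubular, endothelial and macrophage sums were lower in both genotypes. Most of the spermatogonial sum was Zbtb16, at 26.5 CPM in WT PA, 17.2 in WT RO, 51.7 in KO PA and 26.5 in KO RO. For RO over PA, 1 of the 4 spermatogonial genes was above 0 in log2 ratio in WT and 3 in KO. The part of the cell makeup in the ratios of Odf1 and Akap4 was not tested.

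The genes most like each member were taken by the root mean square difference of log2 CPM over the 4 libraries, after subtracting the mean of each gene, among 7052 other genes that have a symbol and reached 10 CPM in any library. Among the nearest to Odf1 were Cxxc5, Ccdc54, 1700084M14Rik and Kif2b, with differences from 0.0538 to 0.123. Ccdc54 had 154 counts in WT PA, 313 in WT RO, 499 in KO PA and 929 in KO RO, and Kif2b, a kinesin, had 242, 392, 811 and 1248. The 5 nearest to Akap4 were Ddi1, Csf1r, Gm30228, Rnf133 and Gm17174, with differences from 0.06 to 0.15. Ddi1 had 64, 223, 293 and 572 counts in the same order, and Rnf133, a ubiquitin ligase, had 45, 119, 193 and 337. Csf1r, the receptor of a macrophage growth factor and a macrophage marker on the list above, had 25, 79, 133 and 236. Akap4 itself was 80th of the 7052 in likeness to Odf1, with a difference of 0.302. With 4 libraries many profiles are alike, and the ranking is a description.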

How the data were processed

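Gene counts of the 4 input libraries and 4 peak lists were used. The authors deposited whole-number, unnormalized counts per Ensembl gene, with totals from 9921365 to 13147239 per library. Their peak lists hold, per the file headers, a fold enrichment ratio, a log10 p-value and a log10 false discovery rate per peak. The authors' score column is the p-value itself. List names alone gave genotype and fraction, and each list comes from 1 pair of libraries. The submitters' processing notes name cutadapt 2.5, HISAT2 2.1.0, HOMER 4.10.4 and mm10. The counter, peak caller, strand setting and handling of shared reads are not given in the sources used here. The peak lists pair Alkbh5 with no identifier, so the targeted gene was not analysed here.

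TMM factors from edgeR 4.0.16 (R 4.3.3) scaled the counts and were 0.892 for WT PA, 0.953 for WT RO, 1.09 for KO PA and 1.08 for KO RO. Log2 ratios used a prior count of 2. A comparison kept the genes that reached 1 CPM in 1 of its libraries, and 2-fold was the limit for a call. Ratio intervals are exact binomial and shares Wilson, at 95%. Peaks were matched by exon blocks on the same strand with at least 1 bp in common. The steps were run on simulated data with Poisson noise only and large changes planted in well counted genes. They recovered 200 of 200 changed genes in each genotype comparison, which was near certain by this design. The run checks the code and gives no error rate for calls in these libraries. Python 3.11.15 with scipy 1.17.1 and pandas 2.3.3 was used. The members and gene lists were chosen with earlier results of these data known. From each list the 4 genes with the highest mean CPM are named, and the 5 genes most like each member, of which 1 is not reported here; others are said to be chosen later. Alternatives were other library factors, a prior count of 0.5, other limits on low counts, a false discovery rate under 0.05, a fold of at least 5 and a reciprocal overlap of 50%.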

Additional observations from a re-analysis of the deposited data

How the results depend on the processing

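No paired analysis was possible because each group holds 1 library. For the same reason no library could be left out. Under 4 alternatives of scaling and prior count, the 8 log2 ratios of Odf1 and Akap4 kept their direction. Scaling by total counts only moved the KO over WT values beyond counting error, for Odf1 to 1.96 in PA and 1.80 in RO and for Akap4 to 2.51 in PA and 1.74 in RO. Upper-quartile factors put Akap4 past 2-fold for RO over PA in KO (1.02). A CPM of at least 10 lowered the number of genes past 2-fold to 3315 of 10630 for KO over WT in PA, 3094 of 10414 in RO, 2593 of 9650 for RO over PA in WT and 1353 of 8106 in KO. A fold of at least 5 removed the Akap4 peak, leaving 0, and no peak of Odf1. A false discovery rate under 0.05 removed no peak of either gene, and with a reciprocal overlap of 50% the Odf1 5′ peaks were still matched. With a prior count of 0.5, 4 fibrous sheath genes rather than 2 were past 2-fold for RO over PA in WT. With total counts only, the log2 ratio KO over WT in PA of Acrv1 turned from −0.09 to 0.20 and that of Tssk4 from −0.24 to 0.05. Each member had at least 293 counts in every library, and no library has a replicate.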
